A study of Mus musculus with 4 samples.

Results

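The genes of protein folding, translocation and degradation in the endoplasmic reticulum (ER) were examined in differentiated 3T3-L1 cells treated with risperidone. The set holds 44 named genes, taken by symbol from a deposited table of 16051 genes, and all 44 were found in it. They were kept in 6 role groups: 7 stress sensors with their proteases and Xbp1, 12 chaperones, 4 disulfide isomerases, 9 genes of ER-associated degradation (ERAD), 7 of the translocon and signal peptidase, and 5 of the oligosaccharyltransferase (OST). 3T3-L1 is a mouse fibroblast line, strain NIH SWISS in the labels, that forms adipocytes in culture, and risperidone is an antipsychotic drug whose users often gain weight. To find how it changes transcription in adipocytes, the study exposed the differentiated cells for 48 h to 100 μM risperidone or to the vehicle DMSO and sequenced 2 mRNA libraries of each. Each library was pooled from 3 cultures after RNA extraction, so the spread between libraries is not the spread between cultures, and the p-values measure the former. The labels call the controls "untreat", give the tissue as embryonic and describe an extraction from retina. The study's methods name DMSO and do not mention retina, and their description is followed here.

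Proteins that are secreted or built into membranes enter the ER through the Sec61 channel, lose their signal peptide, receive sugar chains and disulfide bonds, and fold with the help of chaperones. Molecules that fail to fold are moved back to the cytosol and degraded, which is ERAD. When unfolded proteins build up, the sensors IRE1, ATF6 and PERK start the unfolded protein response, which raises transcription of chaperones and ERAD genes and slows translation. Adipocytes secrete large amounts of adipokines and lipoprotein lipase and depend on this machinery.

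The depth was similar in the 4 libraries, with summed estimated counts between 15883712 and 16374119, and every member had at least 102 counts in every library. Marker transcripts showed that the libraries were not equal in other respects. Of 10 kidney markers, the summed FPKM was between 2.22 and 3.15 in 3 libraries and 201 in risperidone replicate 2, where Kap alone had 1048 counts against at most 16 elsewhere. All 10 adipocyte markers were in the table, with a summed level of 431 and 484 FPKM in the DMSO and 291 and 308 FPKM in the risperidone libraries. Among these defining markers Adipoq had at most 1 count, Cidec at most 2 and Cebpa at most 5 in any library, while Fabp4, Lpl and Pparg were present. Fabp4, Lpl and Plin4 carried the fall of the sum. Pparg overlapped between treatments, with 12.51 and 11.41 FPKM with DMSO and 12.78 and 12.47 FPKM with risperidone, and so did Cd36. The summed level of 4 preadipocyte markers was 81.6 and 84.7 FPKM with DMSO and 166.5 and 171.8 FPKM with risperidone. Dlk1 and Thy1 carried this sum, Ly6a was low, and Pdgfra went the other way, from 13.47 and 13.34 FPKM to 11.95 and 12.56 FPKM. The 4 of 6 retina markers in the table summed to at most 0.9 FPKM. The 4 of 5 macrophage markers in the table summed to 2.68 and 3.55 FPKM with DMSO and 6.38 and 6.83 FPKM with risperidone, nearly all of it Cd68, and 2 of 3 plasma cell markers to at most 0.81 FPKM. The part of these shifts in the results was not tested. In such bulk RNA, fewer cells of a type and less RNA per cell cannot be told apart.

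Compared with controls, most of the chaperones and of the glycosylation and translocation genes were modestly higher after risperidone with TMM scaling, though many of the small increases had a negative sign with TPM, and the sensors were divided. By edgeR's quasi-likelihood test (adjusted p under 0.05), 26 of the 44 members were higher, where 32.1% of all 10243 genes tested were higher, and 8 were lower, where 32.2% of all genes were lower. All 44 were among the genes tested, which needed an average of 1 FPKM or more. The median of the mean FPKM was 60.5 for the members and 14.2 for all genes tested. Small changes are easier to call at higher counts, and the part of this in the shares was not tested. The median log2 fold change of the members was 0.17, against 0.00 for all genes tested, and the members ranged from -0.63 for Ern1 to 0.84 for Edem2. Without risperidone replicate 2, the library with kidney transcripts, 26 members were higher and 7 were lower. Changes were mostly small. Changes of 0.5 or more on the log2 scale were called in 3 higher members, Edem2, Calr and Creld2, where 12.4% of all genes were higher by as much, and in 2 lower members, Ern1 and Sdf2l1, where the share of all genes was 15.3%. Changes of 0.4 or more were called in 6 higher members, which adds Hspa5, Hsp90b1 and Hyou1, against 17.1% of all genes, and in 3 lower members, which adds Atf6b, against 19.5%. On counts scaled with the TMM factors (CPM), the risperidone libraries lay above both DMSO libraries for 30 members, where this held for 41.2% of all genes, and below them for 10 members, where it held for 41.7%. On FPKM this was so for 22 members above, against 32.4% of all genes, and for 13 members below, against 49.8%.

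The counts depend on how the libraries are scaled to each other. TMM, the scaling used, left the median change over all genes at 0.00, and the deposited TPM values, tested with limma, moved it to -0.22. On the TPM scale, 8 members were called higher, where 15.0% of all genes were higher, and 15 were called lower, where 51.7% of all genes were lower. On the same scale, 11 of the 26 higher members had a negative sign, namely Atf6, Ddost, Manf, Mbtps2, Pdia3, Rpn1, Rpn2, Sec61a1, Sel1l, Ssr1 and Uggt1. Most of these 11 calls were also lost with library size alone, where Ssr1 kept its call, and all 11 were lost with limma on FPKM. Of the 10 members not called with TMM, Dnajb9, Dnajb11, Edem3, Os9, P4hb, Ssr2 and Stt3b were called lower with TPM. Taken relative to the median of all genes on the same scale, the 11 higher members were between 0.12 and 0.21, and 31 of the 44 members lay above the median with TPM as with TMM. A median has as many of all genes above it as below. Subtracting it takes out the shift between the scales, so this match cannot decide between them. Over 7 scalings and tests, Calr, Creld2, Edem2, Hsp90b1, Hspa5, Hyou1, Ssr3 and Stt3a were called higher in each, and Atf6b, Dnajc3, Ern1, Mbtps1, Sdf2l1 and Syvn1 were called lower in each. The share of all genes called in each was not counted. Summed over a group, the TPM of the chaperones was 3607 and 3598 in the DMSO and 4673 and 4455 in the risperidone libraries, that of the sensor group was 488 and 482 against 350 and 366, and that of all 44 genes was 10275 and 10234 against 10729 and 10569. FPKM values are scaled by library size, on which the median of all genes was -0.09, so a fold read from FPKM is slightly lower than the fitted one.

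**Figure D1:**
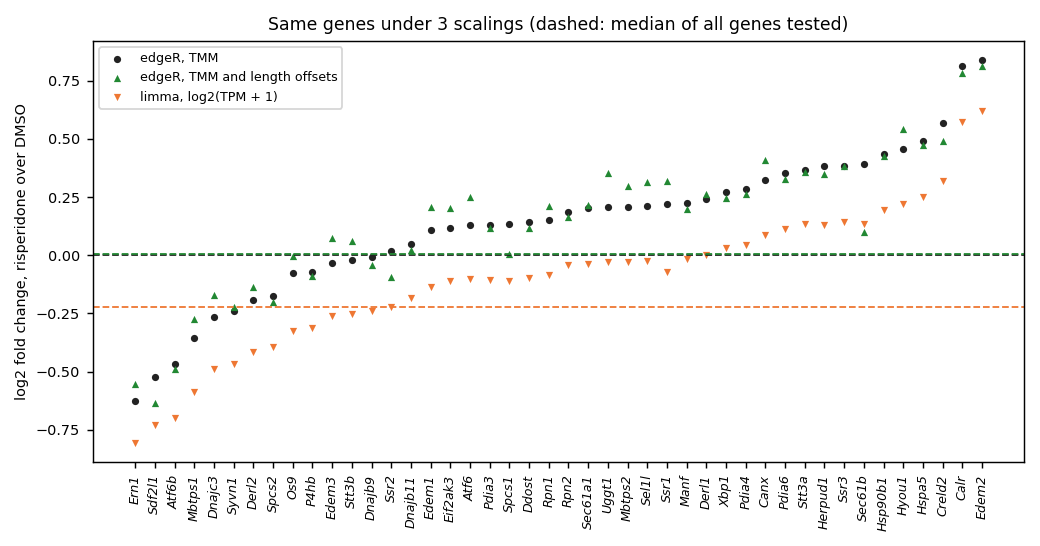
The log2 fold change (risperidone over DMSO, vertical axis) of each of the 44 genes, ordered from Ern1 at the left to Edem2 at the right, with TMM (circles), with TMM and offsets for gene length (upward triangles) and with TPM (downward triangles). Dashed lines are the median of all genes tested, near 0 for both TMM fits and at -0.22 for TPM, and the TPM points sit lower by about that much, so that the 11 higher genes listed in the text fall below 0.

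Many ER chaperone genes are known for a short promoter sequence, the ER stress response element (ERSE), to which the factor NF-Y and activated ATF6 or XBP1 bind, and which was defined in the promoters of Hspa5, Hsp90b1 and Calr. RefSeq promoter windows (GRCm38.p6, from 250 bases before to 50 bases after the start of a gene) were on hand for 38 of the 44 members and for 27025 genes in all. Its letters, CCAAT followed after 9 bases of any kind by CCACG, were searched on both strands and were in the windows of 8 members and of 0.137% of all genes. The letters of ERSE-II, ATTGG followed after 1 base of any kind by CCACG, were in 2 members, neither of which holds the exact letters of ERSE, and in 0.0444% of all genes. Near matches counted as absent, such as CCAAT followed after 9 bases by CCACA in Herpud1. Of the 8 members with ERSE, 6 were higher (Hspa5, Hsp90b1, Calr, Canx, Creld2, Pdia6) and 2 were lower (Dnajc3, Syvn1). Of all genes tested, 32.1% were higher and 32.2% lower. Of the ERSE-II members, Herpud1 was higher and Dnajb11 was not called. The median log2 fold change was 0.40 for the 8 members with ERSE and 0.37 for the 10 with either element. It was 0.13 for the 28 with neither, of which 14 were higher and 6 were lower, against the same 32.1% and 32.2% of all genes. Whether the element goes with the change was not tested. Each match is a description of the letters and not of binding, and the letters were absent from the windows of both members at the ends of the range, Edem2 and Ern1. The windows of 5 members are printed 5′ to 3′ on the strand of the gene, with the fixed letters of ERSE in capitals, to show Calr and Hspa5 as higher and Dnajc3 as a lower carrier of the element, and Edem2 and Ern1 as the largest changes without it. The capitals read CGTGG and ATTGG where the element lies on the other strand.
Calr (chr8:84846882-84847181, minus strand, higher): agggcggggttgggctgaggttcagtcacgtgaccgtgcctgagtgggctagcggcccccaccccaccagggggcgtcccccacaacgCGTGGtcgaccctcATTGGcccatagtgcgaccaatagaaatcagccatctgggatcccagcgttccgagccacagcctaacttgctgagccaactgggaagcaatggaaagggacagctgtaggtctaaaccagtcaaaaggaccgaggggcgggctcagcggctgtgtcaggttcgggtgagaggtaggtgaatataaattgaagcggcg
Hspa5 (chr2:34771840-34772139, plus strand, higher): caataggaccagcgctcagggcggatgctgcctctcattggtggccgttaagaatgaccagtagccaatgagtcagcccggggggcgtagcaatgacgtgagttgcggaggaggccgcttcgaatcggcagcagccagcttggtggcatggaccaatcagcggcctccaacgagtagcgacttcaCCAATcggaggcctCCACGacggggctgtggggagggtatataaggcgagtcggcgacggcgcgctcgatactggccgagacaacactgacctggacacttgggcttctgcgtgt
Dnajc3 (chr14:118937682-118937981, plus strand, lower): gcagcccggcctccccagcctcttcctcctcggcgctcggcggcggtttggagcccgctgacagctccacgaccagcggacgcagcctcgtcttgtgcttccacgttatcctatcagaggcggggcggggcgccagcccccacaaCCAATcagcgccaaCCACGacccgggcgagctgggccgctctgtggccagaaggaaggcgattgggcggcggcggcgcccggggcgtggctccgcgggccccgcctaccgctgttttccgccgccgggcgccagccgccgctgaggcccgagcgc
Edem2 (chr2:155729426-155729725, minus strand, higher, no match): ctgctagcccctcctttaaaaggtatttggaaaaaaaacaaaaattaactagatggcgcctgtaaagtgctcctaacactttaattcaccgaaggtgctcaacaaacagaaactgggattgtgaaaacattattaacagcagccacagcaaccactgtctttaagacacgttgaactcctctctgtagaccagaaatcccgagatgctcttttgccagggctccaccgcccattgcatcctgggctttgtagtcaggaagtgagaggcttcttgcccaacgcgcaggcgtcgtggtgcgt
Ern1 (chr11:106487747-106488046, minus strand, lower, no match): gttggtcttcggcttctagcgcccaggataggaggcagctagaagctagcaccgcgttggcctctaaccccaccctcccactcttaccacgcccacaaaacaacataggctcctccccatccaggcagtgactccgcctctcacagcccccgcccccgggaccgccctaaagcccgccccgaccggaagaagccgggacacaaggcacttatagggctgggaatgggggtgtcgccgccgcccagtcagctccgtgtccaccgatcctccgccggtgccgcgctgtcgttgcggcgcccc
For the other carriers the element is printed with a few flanking bases. Hsp90b1 holds a pair of elements in opposite orientation, and the bases between them are included. In the last 2 lines the capitals mark the fixed letters of ERSE-II.
Creld2 (chr15:88819514-88819544, plus strand, higher): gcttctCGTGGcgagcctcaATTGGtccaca
Hsp90b1 (chr10:86705527-86705662, minus strand, higher): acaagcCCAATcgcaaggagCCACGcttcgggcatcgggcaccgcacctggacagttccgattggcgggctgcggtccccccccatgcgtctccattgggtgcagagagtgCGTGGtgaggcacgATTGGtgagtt
Pdia6 (chr12:17266485-17266515, plus strand, higher): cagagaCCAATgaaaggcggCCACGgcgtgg
Canx (chr11:50325794-50325824, minus strand, higher): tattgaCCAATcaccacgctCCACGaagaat
Syvn1 (chr19:6046526-6046556, plus strand, lower): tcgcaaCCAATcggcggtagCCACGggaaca
Herpud1 (chr8:94386371-94386393, plus strand, ERSE-II, higher): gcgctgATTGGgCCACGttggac
Dnajb11 (chr16:22857846-22857868, plus strand, ERSE-II, not called): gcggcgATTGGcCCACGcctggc

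**Figure D2:**
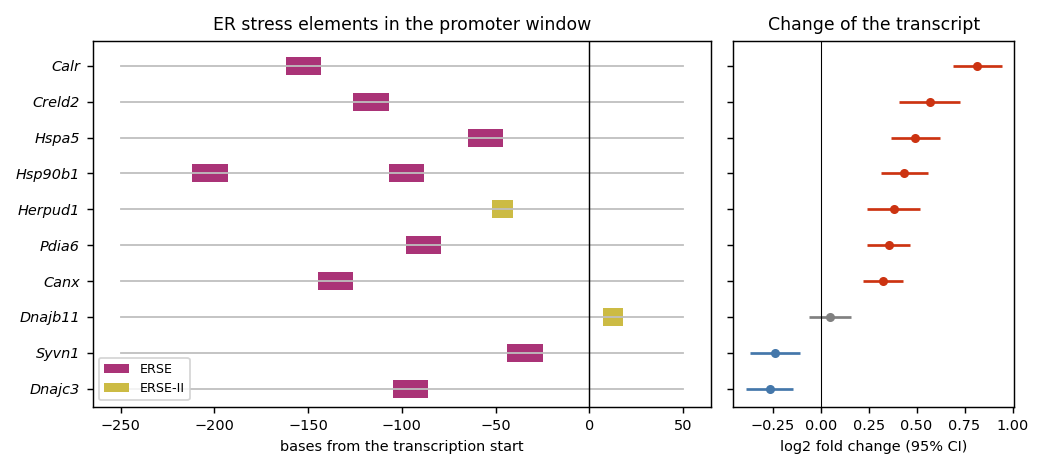
Left, the position of ERSE and ERSE-II (coloured boxes) in the promoter windows of the 10 genes that hold them, in bases from the transcription start (vertical line). Right, the log2 fold change of the same gene, risperidone over DMSO, with its 95% confidence interval from edgeR: the top 7 genes were higher (red), Dnajb11 was not called (grey), and Syvn1 and Dnajc3 were lower (blue). The element of Dnajc3 lies among those of the higher genes, and that of Syvn1 nearest to the start of the 8 genes with ERSE.

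ERSE began 65 bases before the start in Hspa5, 162 in Calr, 105 in Dnajc3 and 44 in Syvn1. Of the lower members, Dnajc3 thus lay among the higher ones and Syvn1 nearer to the start than any of them. A further element, TGATGNAA, the core of sites bound by ATF4, was in 1 member, Herpud1, and in 4.51% of all windows. The short letters ACGTG, the core of XBP1 sites, were in 14 of the 38 members and in 21.8% of all windows, and CCAAT, which is part of ERSE, was in 29 members and in 41.1% of all windows. These short letters occur often by themselves, and of the 14 members with ACGTG, 7 were higher, 2 were lower and 5 were not called, against 32.1% higher and 32.2% lower of all genes.

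The sensors went in both directions. Ern1, Atf6b and Mbtps1 were lower after risperidone in every scaling, Xbp1, Atf6 and Mbtps2 were called higher, the last 2 of them with a negative sign on the TPM scale, and Eif2ak3 was not called. Ern1 encodes IRE1α, the kinase and ribonuclease that splices Xbp1 mRNA. It was the least abundant member, with 8.87 and 8.65 FPKM in the DMSO libraries and 5.13 and 5.48 FPKM in the risperidone libraries. The treatments did not overlap, and the log2 fold change was -0.63 (SE 0.0671, adjusted p = 1.30e-05 from edgeR), the largest decrease of the set. Atf6b, a relative of ATF6 held in the ER membrane, had 37.29 and 39.49 FPKM with DMSO and 26.55 and 25.30 FPKM with risperidone, again with no overlap. Its log2 fold change was -0.47 (SE 0.0618, adjusted p = 5.96e-05 from edgeR), while Atf6 itself had 19.44 and 18.61 FPKM with DMSO and 19.19 and 19.88 FPKM with risperidone. The Atf6 libraries overlapped in FPKM, and its log2 fold change of 0.13 (SE 0.0475, adjusted p = 0.0328 from edgeR) lost its call without either DMSO library, without risperidone replicate 2, with the replicate block (adjusted p = 0.0613), without the filter on low values, with the limit of 5 FPKM and with DESeq2 (adjusted p = 0.113).

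ATF6 proteins are released in the Golgi by the site-1 and site-2 proteases, encoded by Mbtps1 and Mbtps2, which also activate the SREBP factors of lipid synthesis. Mbtps1 had 122.84 and 121.24 FPKM with DMSO and 88.42 and 90.79 FPKM with risperidone. It was the most abundant of the sensor group and fell clearly below both controls, with a log2 fold change of -0.35 (SE 0.0464, adjusted p = 5.79e-05 from edgeR). Mbtps2 was at 14.02 and 13.84 FPKM with DMSO and 14.49 and 15.63 FPKM with risperidone, a log2 fold change of 0.21 (SE 0.0631). Its call was lost without either DMSO library and its sign turned with TPM (-0.031). Of its exons, 36.06% overlap with Yy2 on the same strand, so reads of the 2 genes may be mixed.

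Xbp1 encodes the transcription factor made from the spliced mRNA and had 22.37 and 23.55 FPKM with DMSO and 26.99 and 24.83 FPKM with risperidone. Both risperidone libraries were above both controls, with a log2 fold change of 0.27 (SE 0.0695, adjusted p = 0.00533 from edgeR). With TPM it was not called. Gene counts cannot tell the spliced from the unspliced form. Eif2ak3, which encodes PERK, the kinase that slows translation by phosphorylating eIF2α, had 10.52 and 9.69 FPKM with DMSO and 10.26 and 10.33 FPKM with risperidone. The libraries overlapped, and the 95% confidence interval of the log2 fold change was -0.021 to 0.26 (adjusted p = 0.121 from edgeR). With offsets for gene length the same difference was 0.20 (adjusted p = 0.0110), and with TPM it was -0.11.

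Of the 12 chaperones, 8 were higher, Uggt1 and Manf among them with a negative sign on the TPM scale, and 2 were lower, against 32.1% higher and 32.2% lower of all genes, with a median log2 fold change of 0.27. Calr, calreticulin, a calcium-binding lectin chaperone of the ER lumen, was the most abundant member, with 727.20 and 730.48 FPKM with DMSO and 1260.51 and 1136.93 FPKM with risperidone. That is a 1.76-fold increase, a log2 fold change of 0.82 (SE 0.0580, adjusted p = 6.81e-07 from edgeR), far outside the spread of either treatment. Hspa5, BiP, the Hsp70 chaperone that also holds the sensors inactive, had 314.11 and 322.46 FPKM with DMSO and 439.92 and 398.43 FPKM with risperidone. It was 1.41-fold higher, with a log2 fold change of 0.49 (SE 0.0578, adjusted p = 2.57e-05 from edgeR). Hsp90b1, GRP94, the ER member of the Hsp90 family, rose in the same way, from 321.92 and 321.33 FPKM to 425.94 and 388.41 FPKM, with a log2 fold change of 0.44 (SE 0.0561). Hyou1, which exchanges the nucleotide of BiP, had 74.66 and 68.74 FPKM with DMSO and 93.03 and 91.56 FPKM with risperidone, a log2 fold change of 0.46 (SE 0.0531). Creld2, an ER protein known to be induced in ER stress, was less abundant, with 25.15 and 24.09 FPKM with DMSO and 36.29 and 31.86 FPKM with risperidone, and its log2 fold change was 0.57 (SE 0.0729). None of these 5 genes overlapped between treatments, and risperidone replicate 1 was the higher of the treated libraries in each. On FPKM, 32.4% of all genes lay above both controls in the same way. The 5 were named for a called change of 0.4 or more, which makes overlap unlikely. With any 1 library left out, Calr ranged from 0.73 to 0.89 and Creld2 from 0.47 to 0.66. Hsp90b1 shares 14.69% of its exon bases with a pseudogene on the other strand, and whether the counting used strand is not given in the sources used here.

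The smaller increases were those of Canx, Uggt1 and Manf. Canx, calnexin, the membrane-bound lectin chaperone, had 108.04 and 106.63 FPKM with DMSO and 124.75 and 127.04 FPKM with risperidone (log2 fold change 0.32, SE 0.0464, and 0.086 and not called with TPM). Uggt1, the enzyme that returns misfolded glycoproteins to the calnexin cycle, had 33.52 and 31.24 FPKM with DMSO and 34.32 and 35.69 FPKM with risperidone (0.21, with an interval of 0.095 to 0.32). Manf, a small secreted ER protein that binds BiP, had 27.69 and 31.07 FPKM with DMSO and 33.65 and 30.49 FPKM with risperidone (0.22, SE 0.0769). The Manf libraries overlapped, its call was lost without DMSO replicate 1, risperidone replicate 1 or the filter on low values, that of Uggt1 was lost without DMSO replicate 2, and both had a negative sign with TPM (-0.016 and -0.030).

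J-domain proteins direct BiP to its substrates, and none of the 3 in the set, nor their partner Sdf2l1, was called higher. Outside the set, the ER J-domain gene Dnajc1 was called higher with TMM (0.28, adjusted p = 0.00187 from edgeR), while Dnajc10 and Sec63 were not called (-0.12 and 0.083). Sdf2l1, which works with BiP and Dnajb11, had 10.23 and 11.69 FPKM with DMSO and 7.69 and 6.50 FPKM with risperidone. The treatments did not overlap, and the log2 fold change was -0.53 with a wide interval of -0.86 to -0.19 (adjusted p = 0.0111 from edgeR). Without DMSO replicate 2 it was -0.43 and no longer called (adjusted p = 0.107). Dnajc3, p58IPK, a BiP co-chaperone, had 18.18 and 18.87 FPKM with DMSO and 14.20 and 14.66 FPKM with risperidone, a log2 fold change of -0.27 (SE 0.0560, adjusted p = 0.00162 from edgeR), although its promoter carries ERSE. Dnajb9 had 21.33 and 24.36 FPKM with DMSO and 21.57 and 20.88 FPKM with risperidone, with a confidence interval of -0.16 to 0.15, and Dnajb11 had 59.51 and 62.14 FPKM with DMSO and 59.96 and 58.22 FPKM with risperidone, with an interval of -0.059 to 0.16. Both overlapped between treatments, and a difference as large as that of Hspa5 lies outside both intervals. With TPM both were called lower (-0.24 and -0.18).

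**Figure D3:**
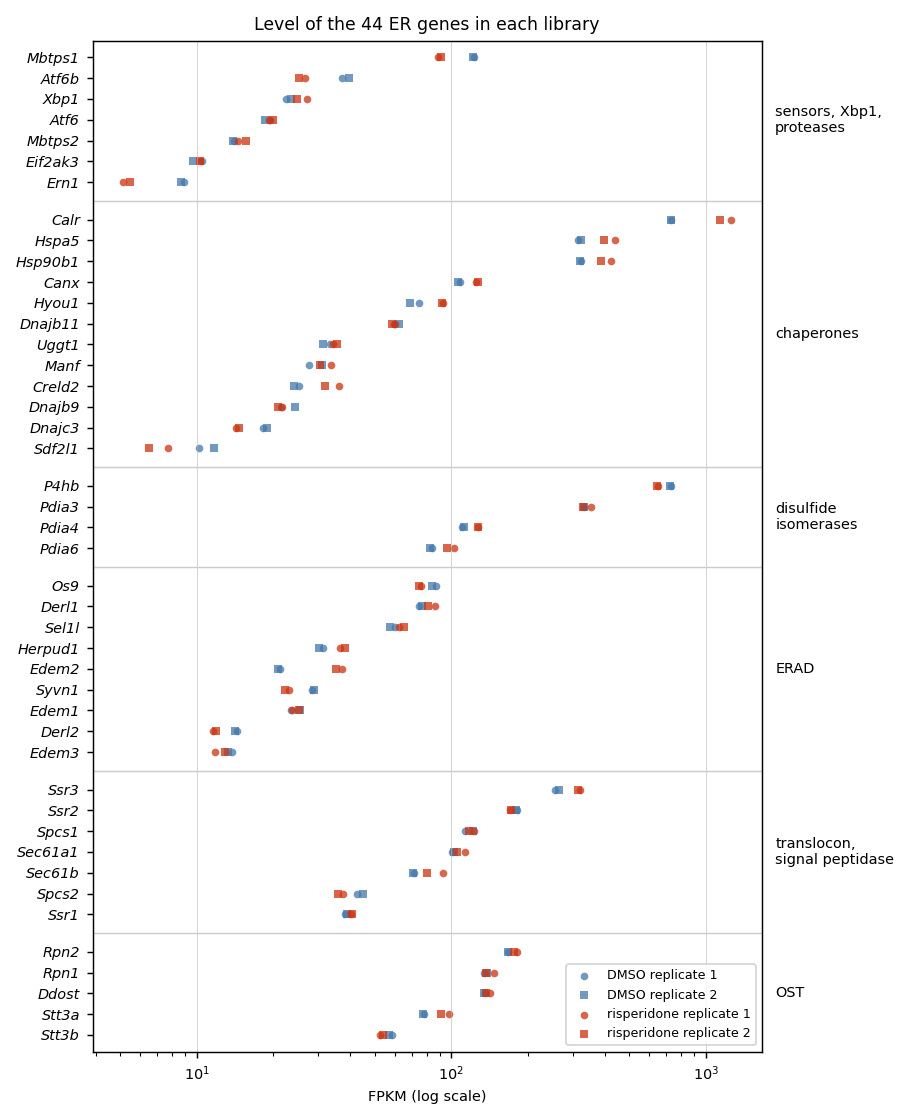
FPKM (log scale) of each of the 44 genes in the 2 DMSO (blue) and 2 risperidone (red) libraries, grouped by role and ordered by level, with circles for replicate 1 and squares for replicate 2. Calr stands apart at the right, with both risperidone libraries above 1100 FPKM and both DMSO libraries at about 730 FPKM, and Ern1 and Sdf2l1 sit at the left with the risperidone libraries below the controls.

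Of the 4 disulfide isomerases, which form and rearrange disulfide bonds, 3 were higher, against 32.1% of all genes, Pdia3 with a negative sign on the TPM scale. Pdia6 had 83.89 and 82.18 FPKM with DMSO and 102.62 and 95.76 FPKM with risperidone (log2 fold change 0.35, SE 0.0507), and Pdia4 had 110.64 and 112.42 FPKM with DMSO and 127.06 and 127.02 FPKM with risperidone (0.28, SE 0.0449). Neither overlapped between treatments in FPKM, where 32.4% of all genes lay above both controls, and neither was called with TPM. Pdia3, ERp57, the partner of calreticulin and calnexin, had 331.18 and 333.40 FPKM with DMSO and 352.45 and 328.67 FPKM with risperidone, with a log2 fold change of 0.13 (adjusted p = 0.0454 from edgeR). With any 1 library left out, Pdia3 ranged from 0.075 to 0.19. It lost its call without either DMSO library, without risperidone replicate 1, with the replicate block, without the filter on low values and with the limit of 5 FPKM, and its sign with TPM was negative (-0.11). P4hb, protein disulfide isomerase itself and the second most abundant member, had 726.80 and 722.87 FPKM with DMSO and 647.59 and 642.84 FPKM with risperidone. Its libraries did not overlap in FPKM, but with TMM the log2 fold change was -0.072 (confidence interval -0.17 to 0.032, adjusted p = 0.201 from edgeR). Scaled by library size alone it was -0.17 (adjusted p = 0.00838 from edgeR), and with offsets for gene length it was -0.091 (adjusted p = 0.0426 from edgeR). The call of P4hb thus rests on the scaling and the length offsets.

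In ERAD, 4 of 9 genes were higher (Sel1l with a negative sign on the TPM scale), 2 were lower and 3 were not called, where 32.1% of all genes were higher and 32.2% lower, with a median log2 fold change of 0.11. Edem2 encodes a mannosidase that starts the trimming by which misfolded glycoproteins are marked. It had 21.31 and 20.91 FPKM with DMSO and 37.08 and 35.19 FPKM with risperidone, the largest increase of the set. It was 1.79-fold higher, a log2 fold change of 0.84 (SE 0.0678, adjusted p = 1.64e-06 from edgeR), and between 0.78 and 0.89 with any 1 library left out. Its relatives did not share this change. Edem1 had 23.37 and 25.48 FPKM with DMSO and 23.70 and 25.28 FPKM with risperidone (confidence interval -0.0038 to 0.22), and Edem3 had 13.76 and 13.31 FPKM with DMSO and 11.83 and 12.96 FPKM with risperidone (-0.17 to 0.10). Edem1 was called higher with offsets for gene length (0.21, adjusted p = 0.00260) and had a negative sign with TPM (-0.14).

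Herpud1, a membrane protein that assembles the ERAD ligase, had 31.33 and 30.34 FPKM with DMSO and 36.61 and 38.13 FPKM with risperidone, with a log2 fold change of 0.38 (SE 0.0629, adjusted p = 0.000306 from edgeR), which was 0.13 and not called with TPM. The ligase itself was divided: Sel1l, its adaptor, had 59.83 and 57.34 FPKM with DMSO and 62.20 and 64.98 FPKM with risperidone (0.21), and Syvn1, HRD1, the catalytic subunit, had 28.34 and 28.82 FPKM with DMSO and 23.08 and 22.28 FPKM with risperidone (-0.24, adjusted p = 0.00439 from edgeR). Sel1l lost its call without DMSO replicate 2 (adjusted p = 0.0508) and had a negative sign with TPM (-0.025). The derlins, membrane proteins of the export channel, differed likewise. Derl1 had 74.98 and 76.61 FPKM with DMSO and 86.64 and 81.01 FPKM with risperidone (0.24), and Derl2 had 14.43 and 14.17 FPKM with DMSO and 11.54 and 11.87 FPKM with risperidone (-0.19). With TPM the difference of Derl1 was 0.0012 and no longer called (adjusted p = 0.985 from limma). For Derl2 the call was lost without risperidone replicate 1 (adjusted p = 0.0536), with DESeq2 (0.117) and with length offsets (0.0532). Os9, the lectin that hands glycoproteins to the ligase, had 87.01 and 84.28 FPKM with DMSO and 76.36 and 74.46 FPKM with risperidone, and was not called with TMM (-0.078, confidence interval -0.18 to 0.026). Its call rests on the scaling, since Os9 was lower with library size alone (-0.17, adjusted p = 0.00754 from edgeR) and with TPM (-0.32, adjusted p = 0.000351 from limma).

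At the translocon, 4 of 7 genes were higher (Sec61a1 and Ssr1 with negative signs on the TPM scale), 1 was lower and 2 were not called, against 32.1% higher and 32.2% lower of all genes. Ssr3, a subunit of the TRAP complex that assists the channel, had 255.42 and 264.86 FPKM with DMSO and 320.12 and 314.93 FPKM with risperidone. This was a log2 fold change of 0.38 (SE 0.0482, adjusted p = 4.31e-05 from edgeR), with no overlap and a call in every scaling. Of its partners in the set, Ssr1 had 38.08 and 38.98 FPKM with DMSO and 40.33 and 40.54 FPKM with risperidone (0.22), and Ssr2 had 181.65 and 178.86 FPKM with DMSO and 169.99 and 171.14 FPKM with risperidone (0.017, confidence interval -0.081 to 0.12). Ssr4, the remaining subunit and no member of the set, was higher by about as much as Ssr3 (0.40, adjusted p = 0.000918 from edgeR). The length of Ssr4 implied by counts and FPKM was short, at 642 bases, and no value with length offsets is given for it. With TPM, Ssr1 had a negative sign (-0.073) and Ssr2 was called lower (-0.22). Sec61a1, the channel, had 101.02 and 102.87 FPKM with DMSO and 113.64 and 105.76 FPKM with risperidone, a log2 fold change of 0.20 that was -0.038 with TPM. Sec61b, its small partner, had 71.66 and 70.50 FPKM with DMSO and 92.96 and 80.14 FPKM with risperidone, a log2 fold change of 0.39 (SE 0.0740, adjusted p = 0.000774 from edgeR). Sec61b is the shortest transcript of the set, and with offsets for gene length its difference was 0.10 (adjusted p = 0.182), and with TPM it was 0.14 (adjusted p = 0.0732 from limma). The accessory subunits of signal peptidase did not move together. Spcs3, which is outside the set, was called higher with TMM (0.31, adjusted p = 0.000383 from edgeR), and Spcs1 and Spcs2 were near the threshold. Spcs2 had 42.77 and 44.90 FPKM with DMSO and 37.39 and 36.01 FPKM with risperidone (-0.17, adjusted p = 0.0345 from edgeR), a call that was lost without either DMSO library, without risperidone replicate 2, without a filter and with DESeq2. Spcs1 had 113.21 and 121.54 FPKM with DMSO and 122.90 and 117.05 FPKM with risperidone and just missed the threshold (0.13, adjusted p = 0.0503 from edgeR), with a difference of 0.0031 when length offsets were used.

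The OST transfers sugar chains to nascent proteins, and 4 of its 5 genes were called higher, against 32.1% of all genes, 3 of them with negative signs on the TPM scale. Stt3a, the catalytic subunit of the complex bound to the translocon, had 77.96 and 77.28 FPKM with DMSO and 97.61 and 90.75 FPKM with risperidone, a log2 fold change of 0.36 (SE 0.0510, adjusted p = 9.31e-05 from edgeR). Stt3b, the catalytic subunit of the second complex, which acts on sites that were skipped, had 58.30 and 57.09 FPKM with DMSO and 52.53 and 54.11 FPKM with risperidone, with a confidence interval of -0.12 to 0.081. The interval of Stt3b does not reach that of Stt3a, which ran from 0.25 to 0.48. Of the shared subunits, the 3 in the set had smaller log2 fold changes than Stt3a. Ddost had 136.09 and 134.11 FPKM with DMSO and 142.09 and 136.45 FPKM with risperidone (0.14). Rpn1 had 133.96 and 138.25 FPKM with DMSO and 146.66 and 136.56 FPKM with risperidone (0.15), and Rpn2 had 166.68 and 166.49 FPKM with DMSO and 181.06 and 176.71 FPKM with risperidone (0.19). Among shared subunits outside the set, Ost4 (0.48), Dad1 (0.41) and Tmem258 (0.37) were also called higher with TMM. Their lengths implied by counts and FPKM were short, at 421, 570 and 288 bases, and no values with length offsets are given for them. Tmem258 overlapped between treatments, with 83.20 and 61.48 FPKM with DMSO and 89.40 and 82.60 FPKM with risperidone. Ddost, Rpn1 and Rpn2 had negative signs with TPM (-0.099, -0.087 and -0.041), and Ddost and Rpn1 lost their calls without either DMSO library, without risperidone replicate 1 and without the filter on low values.

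**Figure D4:**
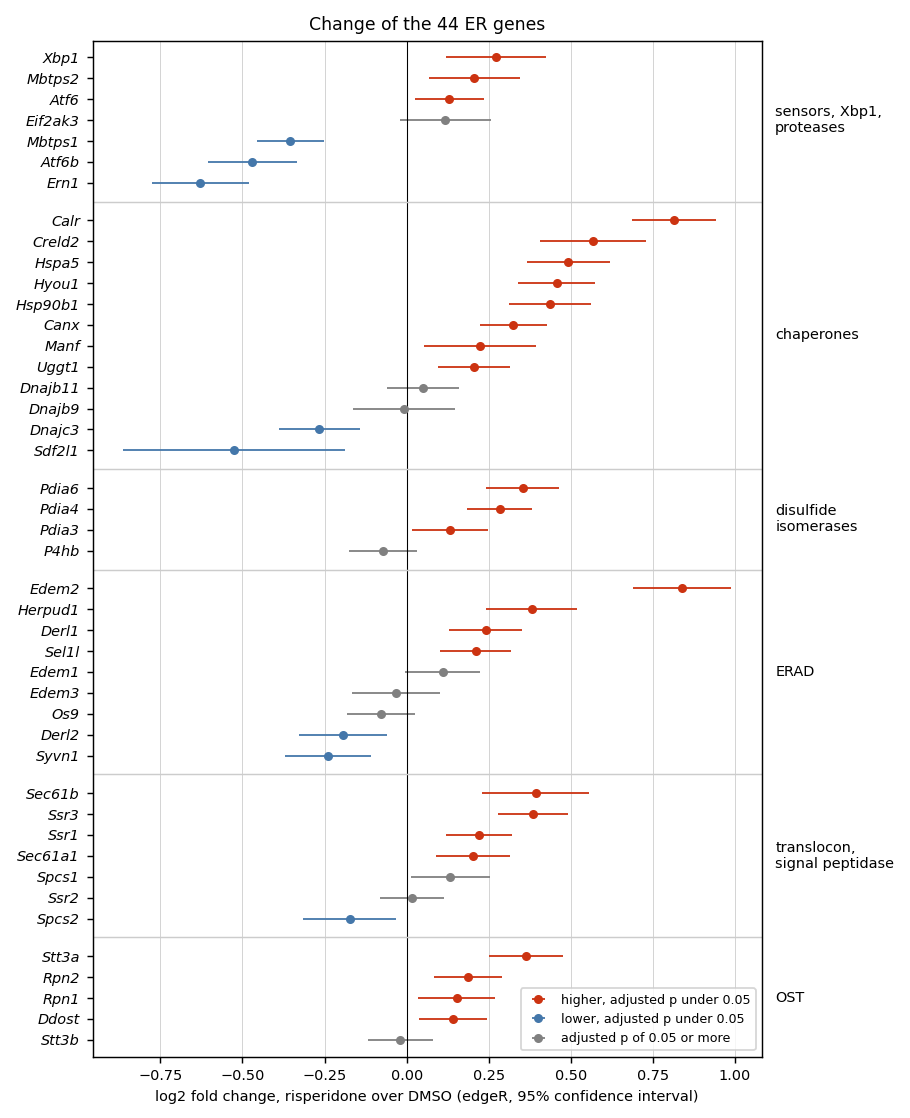
Log2 fold change of each of the 44 genes (risperidone over DMSO, TMM) with its 95% confidence interval from edgeR, grouped by role. Red marks the 26 genes higher and blue the 8 genes lower at an adjusted p under 0.05, grey the 10 not called, and the intervals of Edem2 and Calr lie above those of most other members while that of Sdf2l1, the member with the fewest counts, is the widest.

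Ratios of partner transcripts within a library do not depend on how libraries are scaled. The pairs were chosen after the values were seen, and they are given as a description with no test. The ratio of Stt3a to Stt3b in FPKM was 1.34 and 1.35 in the DMSO libraries and 1.86 and 1.68 in the risperidone libraries. The ratio of Atf6 to Atf6b was 0.521 and 0.471 with DMSO and 0.723 and 0.786 with risperidone. For the ERAD mannosidases, Edem2 stood at 0.912 and 0.821 of Edem1 with DMSO and at 1.56 and 1.39 with risperidone, so that the order of these 2 transcripts was exchanged. The ratio of Sel1l to Syvn1 went from 2.11 and 1.99 to 2.69 and 2.92, that of Derl1 to Derl2 from 5.20 and 5.41 to 7.51 and 6.82, and that of Calr to Canx from 6.73 and 6.85 to 10.1 and 8.95. Hspa5 stood at 0.432 and 0.446 of P4hb with DMSO and at 0.679 and 0.620 with risperidone. Mbtps2 stood at 0.114 of Mbtps1 in both DMSO libraries and at 0.164 and 0.172 in the risperidone libraries. In all of these pairs both risperidone libraries were outside the range of the controls.

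**Figure D5:**
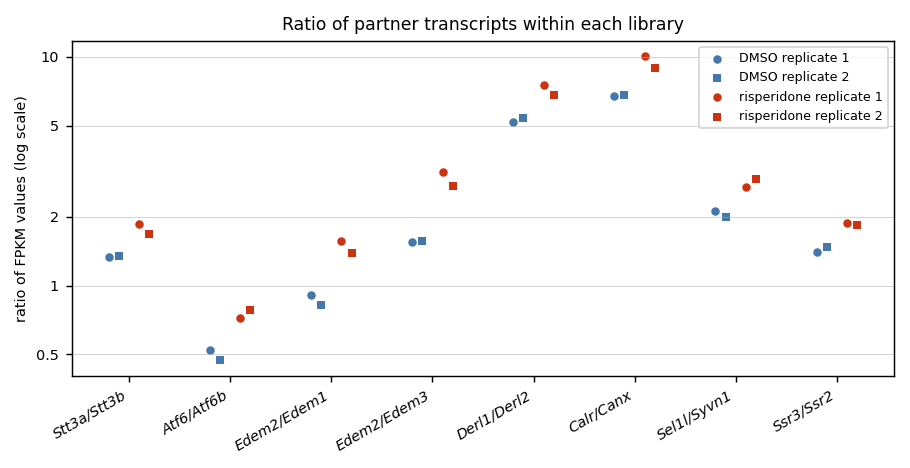
Ratio of the FPKM of 2 partner genes (log scale) within each library, for 8 pairs, with DMSO in blue and risperidone in red, and circles for replicate 1 and squares for replicate 2. In each pair both risperidone points lie above both DMSO points, as in Edem2 to Edem3, which went from 1.55 and 1.57 to 3.13 and 2.72.

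Other genes of the same pathways were taken from a list of 64 further ER genes, of which 62 were tested. Of these, 33 were higher and 11 were lower, where 32.1% and 32.2% of all genes were, with a median log2 fold change of 0.17, the same as that of the 44 members. With TPM 17 were higher and 25 lower, where all genes were 15.0% higher and 51.7% lower, and without risperidone replicate 2 the numbers were 36 and 11. The largest increases were those of Srp68 (0.96), Pdia5 (0.92) and Srp54a (0.80). Srp68 and Srp54a encode subunits of the signal recognition particle, which brings ribosomes to the translocon, and Pdia5 encodes a disulfide isomerase. Srp68 had 41.92 and 42.02 FPKM with DMSO and 83.24 and 69.43 FPKM with risperidone, and Pdia5 had 14.08 and 14.81 FPKM with DMSO and 26.57 and 24.61 FPKM with risperidone. The largest decreases were those of Uggt2 (-0.46), a relative of Uggt1, Faf2 (-0.43), which recruits the segregase VCP to the ER and to lipid droplets, and Magt1 (-0.35), a subunit of the OST complex of Stt3b. Krtcap2, a subunit of the complex of Stt3a chosen after its value was seen, was higher (0.52), while Ostc and Tusc3, further subunits of the complexes of Stt3a and Stt3b, were not called (0.094 and -0.072). The implied length of Krtcap2 was also short, at 423 bases. Sdf2, the paralog of Sdf2l1 and likewise chosen afterwards, was lower (-0.35), with 44.33 and 46.31 FPKM with DMSO and 33.87 and 32.85 FPKM with risperidone.

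The targets of the PERK and ATF4 branch went in both directions. Of 15 genes listed, 7 were higher and 6 were lower, where 32.1% and 32.2% of all genes were, with a median log2 fold change of 0.0064. Ddit3, CHOP, the transcription factor that marks prolonged ER stress, had 107.95 and 114.25 FPKM with DMSO and 503.81 and 382.69 FPKM with risperidone, a log2 fold change of 1.998 (SE 0.103, adjusted p = 9.04e-08 from edgeR). Both risperidone libraries were far above the controls. Atf3, a stress-induced factor at 1.36 and 0.85 FPKM with DMSO and 2.53 and 2.16 FPKM with risperidone, had a log2 fold change of 1.18, and Chac1, which degrades glutathione, had 0.91. In the other direction, Ddit4, an inhibitor of mTORC1, fell from 97.93 and 95.79 FPKM to 22.45 and 25.14 FPKM (-1.93), the cystine transporter gene Slc7a11 had -1.79 and the stress sensor gene Sesn2 had -1.51. Ppp1r15a and Cebpb were not called. The 3 largest changes in each direction in this list were larger in size than that of any of the 44 members. With TPM, 3 of the 15 were called higher and 8 lower, where 15.0% and 51.7% of all genes were, and without risperidone replicate 2 the numbers were 7 and 6 as before.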

How the data were processed

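The 4 libraries were sequenced on MGISEQ-2000, and the authors then removed adaptor, poly-N and low-quality reads. The submitters' processing notes name Bowtie2, RSEM, DESeq2 and the build GRCm38.p6, without versions or roles. The deposited table gives the authors' expected counts (estimated counts, of which 91.2% to 91.7% per library were whole numbers), the authors' FPKM values, made on their DC.TOM platform, and their TPM values, whose making is not given in the sources used here. An FPKM is scaled by library size and gene length, and TPM sums to the same total in each library. Annotation, strandedness and the authors' test are not given in the sources used here. The libraries were grouped by the label for treatment.

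Counts were rounded and compared with edgeR 4.0.16 (R 4.3.3; TMM, quasi-likelihood F-test, two-sided, no covariate) over the 10243 genes that averaged 1 FPKM or more across the 4 libraries, with Benjamini-Hochberg adjustment over all of them and a threshold of 0.05. TMM factors were 1.03 for both DMSO libraries and 0.963 and 0.973 for the risperidone libraries. Log2 fold changes are risperidone over DMSO, the SE is the fold change divided by the root of F, and intervals are at 95%. The floor of detection was 3 counts, which is 0.183 to 0.189 CPM, for counting error alone. The median chi-square between replicates was 0.683 for DMSO and 1.14 for risperidone, over genes with a summed count of at least 20, so no library was a copy of another. Alternatives were limma 3.58.1 on log2 FPKM (pseudocounts 1 and 0.1) and log2 TPM (pseudocount 1), DESeq2 1.42.0, RLE size factors, library size alone, a fit without the 89 ribosomal protein genes, no filter, a mean of 5 FPKM, offsets for the gene length implied by the deposited counts and FPKM, a replicate block, a log2 fold change of at least 0.5, and each library left out in turn.

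Every member is accounted for. All sensors, Xbp1, Hspa5 and each called member that changed by 0.4 or more (log2) are given with the value of each library, and of each other list up to 3 changes in each direction. The members and lists were chosen with earlier results of these data known. Lists were written from general knowledge. Of the 64 further ER genes, Hm13 was not matched by symbol and Derl3 was under the filter. Promoter windows came from RefSeq by gene symbol, and Atf6, Derl1, Hyou1, Manf, Sec61a1 and Ssr2 had none. In the GENCODE M21 annotation, 14 members share exon bases with another gene, 12 of them on the other strand, and reads of such pairs cannot be told apart where strand was not used. Estimated counts were not whole in 2 members, Derl2 and Rpn2. Python 3.11.15 with pandas 2.3.3 and matplotlib 3.10.9 served for tables and figures.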

Additional observations from a re-analysis of the deposited data

How the results depend on the processing

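The number of higher members, 26, became 16 with library size alone, 15 with limma on FPKM at either pseudocount and 8 with TPM, where the number of lower members, 8, became 15. All genes shifted alike, to 24.4% higher and 39.9% lower with library size alone, 23.6% and 38.8% with limma on FPKM (pseudocount 1) and 15.0% and 51.7% with TPM. At a log2 fold change of at least 0.5 these numbers were 3 and 2, where 12.4% of all genes were higher and 15.3% lower. The further ER genes were 17 higher and 25 lower with TPM, and 9 and 0 at 0.5. The PERK and ATF4 targets called higher were 3 with limma on FPKM with a pseudocount of 1, 4 with 0.1 and 3 with TPM. At 0.5 they were 3 higher and 6 lower, against the same 12.4% and 15.3% of all genes. The 6 lower were as many as without that limit. When single libraries were left out, which leaves 1 library in a treatment, the median log2 fold change of the members was 0.15 to 0.19. That of all genes was -0.0054 to 3.5e-05 in the same fits. Signs turned with TPM for Atf6 (-0.10), Ddost (-0.099), Dnajb11 (-0.18), Edem1 (-0.14), Eif2ak3 (-0.11), Manf (-0.016), Mbtps2 (-0.031), Pdia3 (-0.11), Rpn1 (-0.087), Rpn2 (-0.041), Sec61a1 (-0.038), Sel1l (-0.025), Spcs1 (-0.11), Ssr1 (-0.073), Ssr2 (-0.22) and Uggt1 (-0.030). Signs of uncalled members also turned for Dnajb11 with library size alone (-0.044) and with limma on FPKM (-0.041 and -0.042), for Ssr2 with library size alone (-0.076), limma on FPKM (-0.079 and -0.080), a mean of 5 FPKM (-0.0075) and length offsets (-0.095), for Edem3 (0.074) and Stt3b (0.062) with length offsets, for Dnajb9 without DMSO replicate 2 (0.089) or risperidone replicate 2 (0.022), where single libraries left out gave -0.099 to 0.089, and for Edem3 without risperidone replicate 1 (0.025), where they gave -0.092 to 0.025. TPM and library size moved the median of all genes, and the cause of the other changes was not tested. Whether the labels' replicate numbers pair the libraries is not known. Same-numbered deviations correlated at -0.10, but with 2 libraries a treatment this value cannot show pairing or its absence. With the replicate block 24 members were higher and 8 lower, where 32.1% and 32.4% of all genes were. With the numbers crossed, a pairing added after the data were seen, 28 were higher and 8 lower, where 33.9% and 34.4% of all genes were. With 2 pooled libraries a treatment, small differences between cultures could not be measured, and depth limited Sdf2l1 most, at 102 counts in its lowest library.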
